A study of Mus musculus with 4 samples.

Results

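The genes described here are 9 core cardiac transcription factors: Gata4, Gata5, Gata6, Nkx2-5, Hand1, Hand2, Mef2a, Mef2c and Mef2d. They were chosen by name, and each was represented by every probe set to which the platform annotation gives that gene symbol alone. That gave 22 probe sets for the 9 genes, of 22626 probe sets other than controls and 12393 genes with such a probe set in all. A probe set is a group of short probes on the array that together read 1 transcript. RNA came from wild-type C57BL/6 mouse hearts between embryonic days 10.5 and 11.0, and 2 tissues were compared, the atrioventricular (AV) junction and the ventricular region. The labels name no genetic change or treatment for either group. Each tissue was dissected from about 80 hearts, and total RNA, 230 ng for the junction and 250 ng for the ventricle, was amplified and read on 2 Affymetrix MOE430A arrays per region, named replicate 1a and 1b. Because the arrays of a region share a replicate number, they were taken as 2 readings of 1 pool, so p-values measure the spread between arrays, which may be technical, and not that between hearts.

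The factors fall into families that bind DNA in different ways. GATA factors bind the letters GATA through zinc fingers, Nkx2-5 binds through a homeodomain, the Hand proteins are basic helix-loop-helix (bHLH) factors that pair with other bHLH proteins on E-boxes, and the Mef2 proteins bind A- and T-rich sites through a MADS domain. In the embryonic heart they act together on shared enhancers and promoters of muscle genes, and several bind each other. The AV junction at this stage holds muscle that conducts slowly and cushions of mesenchyme that will form valves and septa, while the ventricular region holds fast-growing chamber muscle. The comparison asks which genes differ between these tissues, with the purpose, per the series' design text, of finding genes that the AV cushions need.

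Of the 9 factors, Gata5 and Gata6 were higher in the AV junction and Hand1 was lower, each on its brightest probe set. Gata4, Nkx2-5 and the 3 Mef2 genes had no probe set that passed, and the only probe set of Hand2 was too dim to be tested. Probe sets averaging under 100 in scaled intensity were not tested. This kept 17 of the 22 probe sets, from 8 of the 9 genes. Intensities are the deposited values multiplied so that each array has a trimmed mean of 500. Differences are log2 of scaled intensity plus 50, AV junction minus ventricular region, from limma, and they passed where the p adjusted by Benjamini and Hochberg was 0.05 or less over all 13403 probe sets tested. Among the 17 tested probe sets 2 were higher, 1 was lower and 14 did not pass, so that 17.6% passed, where 13.8% of all tested probe sets did. Of all tested probe sets 7.24% were higher and 6.58% lower. The share of the factors that passed is thus near that of the whole array. Their median log2 difference was 0.14, and that of all probe sets was −0.07. Scaling the arrays to equal medians moved the latter to 0.09 and the share of higher calls among all probe sets from 52.4% to 78.9%. Under that scaling 4 probe sets of the factors were higher and 0 lower (limma, with 6 higher and 1 lower at an unadjusted p under 0.05).

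**Figure D1:**
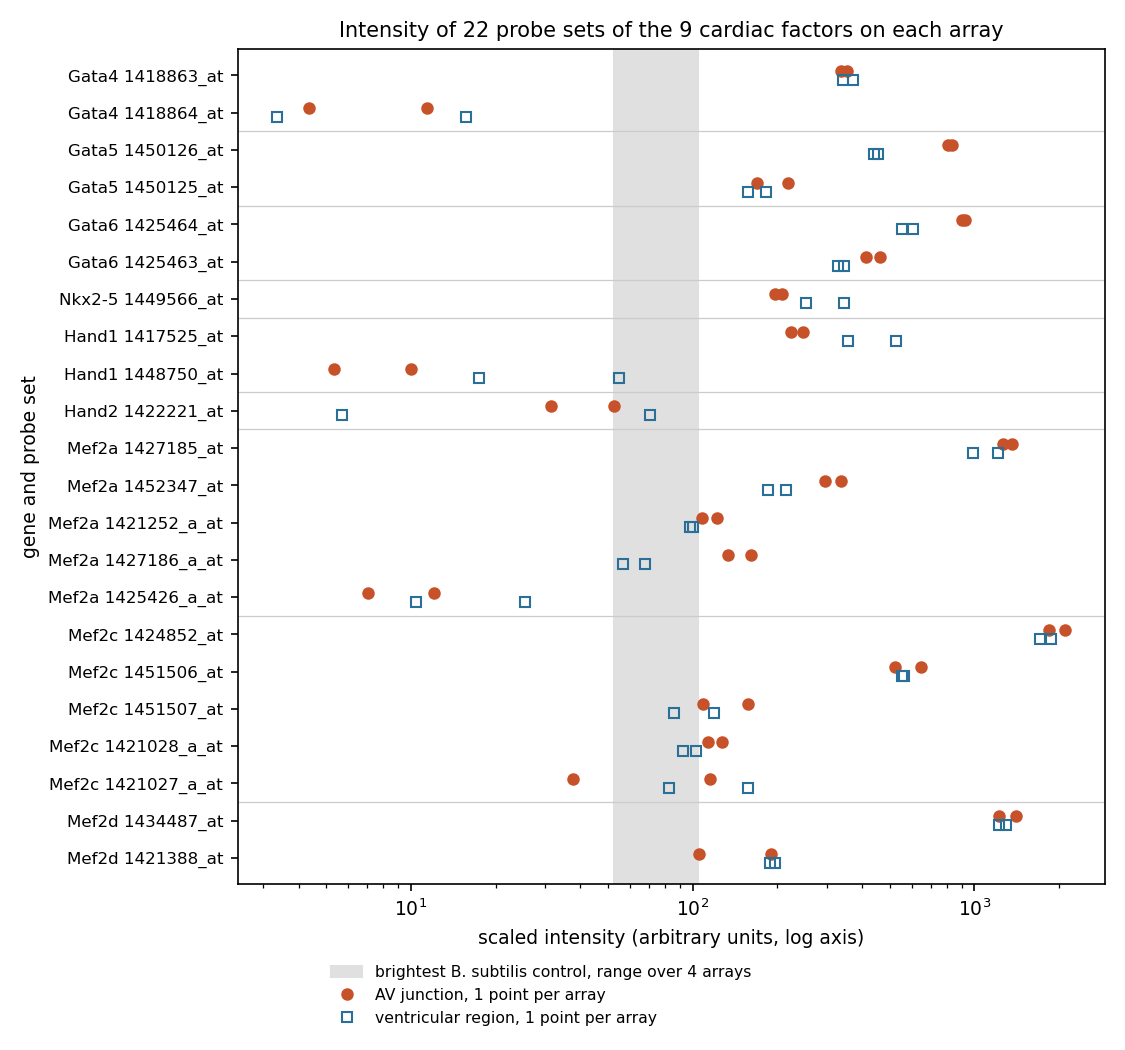
Scaled intensity of each of the 22 probe sets (rows) on the AV junction arrays (filled circles) and the ventricular arrays (open squares), on a log axis in arbitrary units. The grey band spans the brightest Bacillus subtilis control over the 4 arrays, 52.6 to 104. Gata5 1450126_at, Gata6 1425464_at and Hand1 1417525_at show regions whose arrays do not overlap, while the arrays of Gata4 1418863_at do.

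Array quality can be given in brief. The brightest control probe set for Bacillus subtilis, whose RNA the tissue lacks, read 58.6 and 52.6 on the junction arrays and 97.9 and 104 on the ventricular arrays, and "background" below means that control on the same array. Pearson's r of log2 values across the tested probe sets, which are not independent, was 0.980 within the junction pair, 0.979 within the ventricular pair and 0.947 to 0.950 across regions. Markers of heart muscle were bright in both tissues, with a summed intensity over 6 genes of 48423 to 49091 on the junction arrays and 72150 to 81531 on the ventricular arrays. For 7 genes of cushion mesenchyme it was 14699 to 17453 against 5304 to 5329, and for 7 genes of endocardium, the inner lining, 2994 to 3358 against 2278 to 2635. Of the 5 endocardial genes tested only Tek passed (1062 and 1432 against 576.6 and 623.5). Emcn pointed the other way without passing (102.5 and 131.4 against 243.7 and 202.6), so the endocardial sum does not speak for each gene. The sum over 9 erythroid genes was 41460 to 42652 on the junction arrays and 77866 to 85178 on the ventricular arrays, and over 8 genes of liver and yolk sac it was 6906 to 7364 against 400.1 to 513.3. Afp, a fetal serum protein gene, made up most of the last sum in the AV junction (4939 against 17.9), and Ttr, Alb and Rbp4 also passed as higher there. Apoa1 was above background on the junction arrays alone, Apob on 1 of them, and Fgb and Apoa4 on none of the 4 arrays. In such bulk tissue fewer cells of a type and less RNA per cell cannot be told apart.

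Among the GATA factors Gata5 and Gata6 were higher in the AV junction and Gata4 did not pass. Gata5, a factor of endocardium and cushions whose loss affects aortic valve form, read 829.7 and 806.8 on the junction arrays and 439.5 and 455.4 on the ventricular arrays with probe set 1450126_at. Both junction arrays were high and the regions lay well apart. The log2 difference was 0.80 with an SE of 0.13, or 1.75-fold (limma, adjusted p = 0.00831), and it passed under each of the 14 alternative settings, with adjusted p-values between 0.00298 and 0.0470. The second probe set of Gata5, 1450125_at, read 169.9 and 217.2 against 181.7 and 157.6. Its arrays overlapped between regions, and its log2 difference of 0.14 did not pass (adjusted p = 0.673). The difference between the 2 probe sets of Gata5 on the same array changed by 0.66 from the ventricular region to the AV junction, with no overlap of arrays.

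The bases before the start of Gata5 are shown because it had the largest difference among the factors that passed. They lie at chr2:180334680-180334929, minus strand, of the mouse assembly GRCm38.p6, as given by RefSeq. The capitals mark the only match found to the motifs searched, an E-box between bases 138 and 133 before the start. Matches are letters in a window of 250 bases and not shown to be sites.
Gata5, upstream bases: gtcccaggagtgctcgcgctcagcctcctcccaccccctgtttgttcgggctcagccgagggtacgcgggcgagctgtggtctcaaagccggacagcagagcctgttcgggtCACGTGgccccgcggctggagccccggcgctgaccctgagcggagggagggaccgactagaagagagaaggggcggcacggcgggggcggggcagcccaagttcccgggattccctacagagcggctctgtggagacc
The motifs were searched on both strands. For GATA factors these were AGATAA, with AGATAG also allowed, as well as TGATAA, with TGATAG also allowed. The letters AAGTG were used for Nkx2-5, CANNTG for E-boxes, and the Mef2 consensus for Mef2. Of 32851 mouse promoters of this length, 66.2% held an E-box, 40.7% the Nkx2-5 letters, 26.5% a GATA match and 2.92% the Mef2 consensus. Promoters of 6 of the 9 factors were searched, and those of Gata4, Gata6 and Hand1 were not.

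Gata6, a factor of heart muscle, outflow and cushions that overlaps in function with Gata4, read 922.8 and 904.3 on the junction arrays and 552.5 and 606.7 on the ventricular arrays with probe set 1425464_at. Both junction arrays were again the higher ones. The log2 difference was 0.62 with an SE of 0.12, or 1.53-fold (limma, adjusted p = 0.0187). This call rested on all 4 arrays: the log2 difference was 0.55 to 0.68 and the adjusted p 0.0586 to 0.0936 when any of the junction arrays 1a and 1b and the ventricular arrays 1a and 1b was left out. It also missed without a trend in the variance (adjusted p = 0.0619). Its second probe set, 1425463_at, pointed the same way with no overlap (462.8 and 413.3 against 328.9 and 344.8), but its log2 difference of 0.33 did not pass (adjusted p = 0.177). Gata4, the best known partner of Nkx2-5 in the heart, did not pass. Its probe set 1418863_at read 353.2 and 334.8 on the junction arrays and 370.8 and 340.7 on the ventricular arrays, which overlap. The log2 difference of Gata4 was −0.04 with a 95% interval from −0.40 to 0.32 (limma, adjusted p = 0.876), and its sign turned to positive with quantile normalisation (0.012) and with median scaling (0.12). The second probe set of Gata4 lay below background on every array (3.35 to 15.8).

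Within the arrays, the brightest probe sets of Gata5 and Gata6 lay further above that of Gata4 in the AV junction, in a comparison that could not pass. The log2 value of Gata5 minus that of Gata4, both on their brightest probe sets, was higher by 0.85 in the AV junction than in the ventricular region, and that of Gata6 minus Gata4 by 0.66. In both cases the arrays did not overlap between regions, and 61.2% of all tested probe sets, taken singly, had no overlap either. The second probe set of Gata5, with a log2 difference of 0.14 and overlapping arrays, was not set against Gata4. An exact two-sided permutation test of 2 against 2 arrays cannot go below p = 0.333, which is the p of both, and Benjamini-Hochberg adjustment over the 8 pairs of probe sets compared gave 0.533. Gata6 minus Gata5 was lower by 0.19 in the AV junction (p = 0.333 in the same exact test). The markers of cushion mesenchyme were higher on the same junction arrays, with 6 of 7 tested genes passing. So were the 4 tested genes among 8 markers of liver and yolk sac, organs where Gata4 and Gata6 are also active. Twist1, Sox9, Prrx1, Afp and Ttr among these markers averaged under 100 in the ventricular region and reached the floor through the junction arrays. The part of the markers in the Gata5 and Gata6 differences was not tested.

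**Figure D2:**
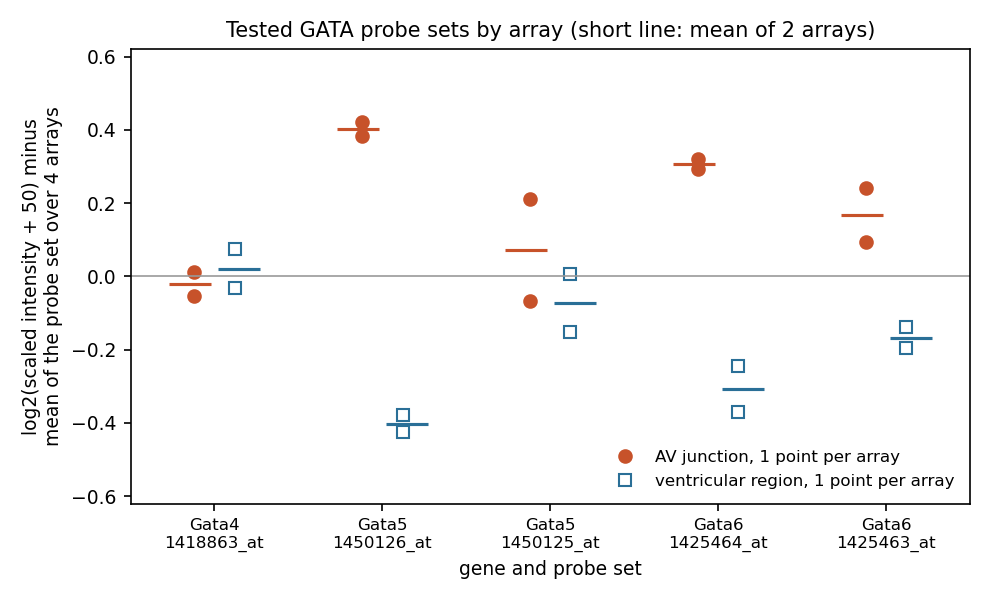
Log2(scaled intensity + 50) of the 5 tested GATA probe sets on each array, minus the mean of the probe set over the 4 arrays (filled circles: AV junction, open squares: ventricular region, short lines: means of 2 arrays). The junction arrays sit above the ventricular ones for Gata5 1450126_at and both Gata6 probe sets, by 0.80, 0.62 and 0.33, and overlap with them for Gata4 and for Gata5 1450125_at.

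Nkx2-5, the homeodomain factor of the heart tube and a common cause of inherited septal and conduction defects when mutated, was read by 1 probe set, 1449566_at. It gave 207.4 and 196.4 on the junction arrays and 343.3 and 252.5 on the ventricular arrays. Both ventricular arrays were the higher ones, but they also lay far apart from each other. The log2 difference of Nkx2-5 was −0.45 with an SE of 0.20 and a 95% interval from −0.92 to 0.01, and it did not pass (limma, adjusted p = 0.166). It did not pass under any of the 12 alternatives that kept it, where the log2 difference lay between −0.64 and −0.26 and the adjusted p between 0.142 and 0.521.

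Hand1, a factor of the outer curvature and the left ventricle, was lower in the AV junction. Its probe set 1417525_at read 224.2 and 246.0 on the junction arrays and 355.0 and 527.2 on the ventricular arrays. Of these, the junction arrays lay close together, and the ventricular ones far apart but both above them. The log2 difference was −0.76 with an SE of 0.21, so that the ventricular level was 1.70-fold higher (limma, adjusted p = 0.0491). The call lay at the threshold and was lost without junction array 1a (−0.71, adjusted p = 0.141), junction array 1b (−0.82, adjusted p = 0.103) or ventricular array 1b (−0.51, adjusted p = 0.211). It also missed with quantile normalisation (0.0815), median scaling (0.0861), an added value of 200 (0.0510), no floor (0.117) or no trend in the variance (0.0906). Over all alternatives its adjusted p ran from 0.0160 to 0.211, and its sign was negative in each. Its other probe set lay below background on all arrays (10.1 and 5.36 against 17.4 and 54.7). Markers of heart muscle were also lower in the AV junction, 4 of 6 passing with a median log2 difference of −0.42, and their part in the Hand1 difference was not tested.

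For Hand2, the relative that shapes the right ventricle and also acts in cushions and endocardium, no regional statement can be made. Its only probe set, 1422221_at, read 31.5 and 52.6 on the junction arrays and 5.70 and 70.4 on the ventricular arrays. None of these exceeded the background of its array, and the regions overlapped. Without the floor on low values its log2 difference was 0.16 with an SE of 0.39 (limma, adjusted p = 0.854).

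The Mef2 genes did not pass in either direction. Mef2c, needed for looping and for the right ventricle, read 2101 and 1834 on the junction arrays and 1871 and 1707 on the ventricular arrays with its brightest probe set, 1424852_at. The arrays of the regions overlapped, and the log2 difference of 0.13 had a 95% interval from −0.13 to 0.40 (limma, adjusted p = 0.459). The other 3 tested probe sets of Mef2c gave log2 differences between 0.05 and 0.26. One of these, 1421028_a_at, was above background on both junction arrays and on neither ventricular array. Background was itself higher on the ventricular arrays (97.9 and 104 against 58.6 and 52.6). Its readings alone set it at least 1.19-fold higher (120.1 ± 9.26 against 97.6 ± 7.61, SD, n = 2 arrays). The log2 difference of 0.21 had a 95% interval from −0.37 to 0.78, so no regional difference was shown (limma, adjusted p = 0.598). Here and below "at least" sets the brighter region against the mean background of the dimmer region's arrays, on log2 values without the added 50. It does not include the spread between arrays. The last probe set of Mef2c was left out by the floor, with a mean of 98.1 just under it, and its arrays were scattered (114.9 and 37.5 against 82.1 and 157.6).

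Mef2d, the most broadly expressed member, read 1219 and 1404 against 1227 and 1293 with 1434487_at. These arrays overlapped, and the log2 difference was 0.05 with a 95% interval from −0.22 to 0.33 (limma, adjusted p = 0.784), turning to −0.022 with quantile normalisation. Its second probe set gave −0.33 (adjusted p = 0.421).

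Mef2a, the main form in the postnatal heart, had all 4 of its tested probe sets higher on both junction arrays than on either ventricular array, yet none passed. Of all 13403 tested probe sets 61.2% had no overlap in 1 direction or the other. The 4 probe sets also read 1 gene on the same arrays and are not independent. Of them, 1427186_a_at and 1421252_a_at averaged under 100 in the ventricular region (62.4 and 99.1). They reached the floor through the junction arrays (147.1 and 114.6), so the floor favoured their direction. The brightest, 1427185_at, read 1363 and 1261 on the junction arrays and 988.0 and 1210 on the ventricular arrays. Here ventricular array 1b came close to the AV level, and the log2 difference of 0.25 had a 95% interval from −0.05 to 0.56 (limma, adjusted p = 0.231). The probe set 1452347_at read 295.2 and 336.8 against 214.6 and 185.1, a log2 difference of 0.55 (adjusted p = 0.0839). The dim probe set 1427186_a_at read 133.0 and 161.2 against 68.1 and 56.7, with both ventricular arrays below background. Its readings alone set the junction level at least 1.45-fold higher (147.1 ± 19.9 against 62.4 ± 8.05, SD, n = 2 arrays). The log2 difference of 0.81 had a 95% interval from 0.20 to 1.42 and did not pass (limma, adjusted p = 0.0800). Both of these passed with median scaling (adjusted p = 0.0306 for 1452347_at and 0.0383 for 1427186_a_at), and 1427186_a_at also without a trend in the variance (adjusted p = 0.0496). The fourth, 1421252_a_at, gave 0.14. The last, 1425426_a_at, was left out by the floor and lay below background on every array (mean 9.55 against 17.9).

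**Figure D3:**
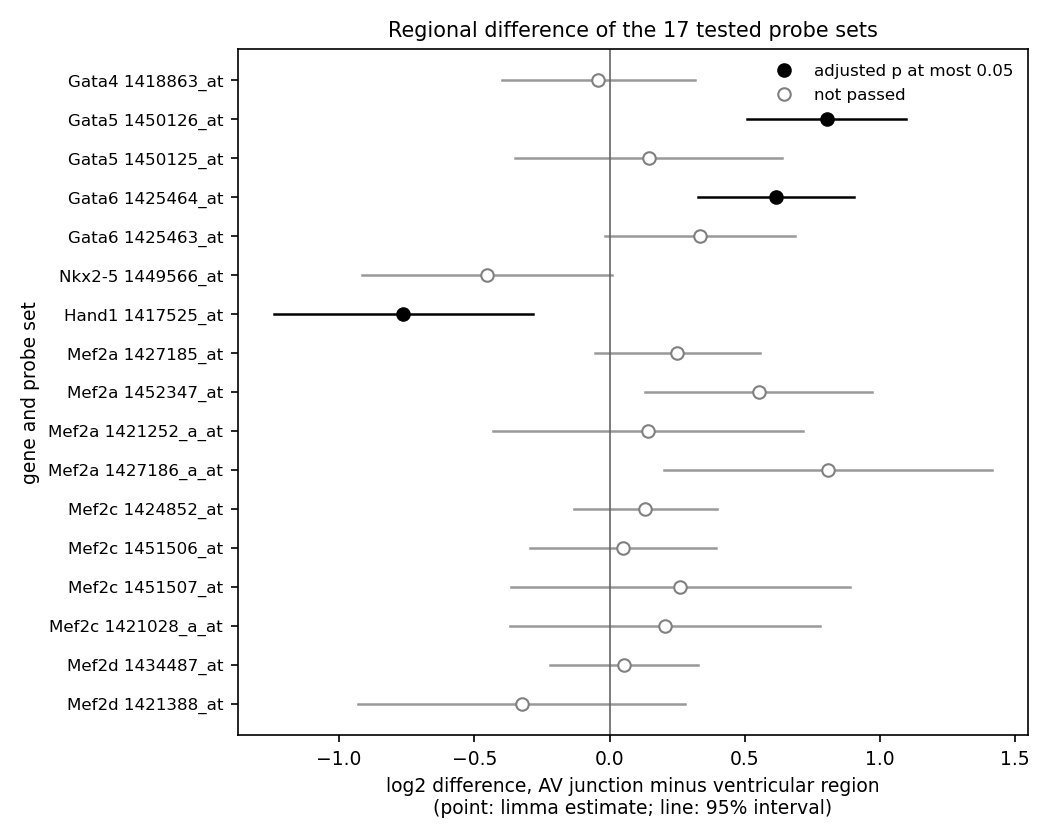
Log2 difference, AV junction minus ventricular region, of the 17 tested probe sets (points: limma's estimate, lines: 95% interval, filled: passed at an adjusted p of at most 0.05). The 3 filled points are Gata5 1450126_at at 0.80, Gata6 1425464_at at 0.62 and Hand1 1417525_at at −0.76.

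Over the 17 tested probe sets, 8 had both junction arrays above both ventricular arrays, 2 had them below and 7 overlapped. This is 58.8% with no overlap, where 61.2% of all tested probe sets had none in 1 direction or the other. Of the 8, Mef2a 1427186_a_at, Mef2a 1421252_a_at and Mef2c 1421028_a_at averaged under 100 in the ventricular region (62.4, 99.1 and 97.6). They reached the floor through the junction arrays (147.1, 114.6 and 120.1). Hand1 1448750_at, lower on both junction arrays, was left out by the floor (mean 21.9). The floor thus favoured the higher side, so the split of 8 and 2 cannot speak for direction. Log2 differences of brightest probe sets were also measured from the median of all probe sets, −0.07. They were 0.87 for Gata5, 0.68 for Gata6, −0.69 for Hand1, and −0.39 for Nkx2-5 and 0.32 for Mef2a, which did not pass. Dimmer probe sets of Mef2a that did not pass lay at 0.88 (1427186_a_at) and 0.62 (1452347_at). The second probe set of Gata5 lay at 0.21.

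The genes whose values over the 4 arrays were most like those of the 3 factors that passed were found by the smallest root mean square difference of centred log2 values among 8409 other genes. For Gata5 these were Nfatc3, a calcium-responsive transcription factor gene (0.003), and the kinase gene Gsk3b (0.010). For Gata6 they were Fem1b (0.006), a ubiquitin ligase adaptor, and the peroxisome gene Pex13 (0.015). For Hand1 they were the chemokine receptor gene Ccr6 (0.033) and the orphan receptor gene Gpr162 (0.036). Of these Gsk3b (adjusted p = 0.0732 in limma) and Gpr162 (0.0616) did not pass, and Gsk3b was below background on both ventricular arrays. With 4 arrays in 2 regions such closeness describes a shared size of regional difference and little else.

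Of 5 tested relatives that serve other tissues, 1 was lower and 0 higher (limma, with 2 lower and 0 higher at an unadjusted p under 0.05). That is 20%, near the 15.0% of all 8410 genes by their brightest probe set. Nkx2-3, a homeobox gene of gut and spleen, was lower in the AV junction on 1 of its 3 probe sets (138.1 and 207.5 against 337.9 and 338.1). Its log2 difference of −0.82 passed (limma, adjusted p = 0.0416), but did not when junction array 1a or either ventricular array (1a, 1b) was left out (adjusted p up to 0.144 over all alternatives). The blood factor genes Gata1 and Gata2 did not pass at −0.57 (adjusted p = 0.109) and −0.29 (0.168). Nkx2-6, of the pharynx, and Mef2b, the most divergent Mef2 gene, gave 0.26 and 0.07 and did not pass, and Gata3 lay below background on all arrays.

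Factors that work with the 9 on DNA were more often higher than lower in the AV junction. Among 16 tested partner genes 7 rose, 0 fell and 9 did not pass (limma, with 8 higher and 2 lower at an unadjusted p under 0.05). That is 43.8%, against 15.0% of all 8410 genes by their brightest probe set, 8.47% up and 6.54% down. This list and those that follow were chosen with earlier results of these data known, which limits such contrasts. The median log2 difference of the partners was 0.40, and that of all genes −0.06. Only 3 partners passed without junction array 1b or without ventricular array 1a. Nfatc1, the endocardial factor of valve growth, read 381.0 and 464.9 on the junction arrays and 153.9 and 110.7 on the ventricular arrays, a log2 difference of 1.38 (adjusted p = 0.00682), while its second probe set gave 0.41 and did not pass. Of 5 tested markers of endocardium 1, the receptor gene Tek, was higher at 0.98 and 4 did not pass, with a median of 0.16.

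Tbx5, the T-box partner of Gata4 and Nkx2-5 in atria, left ventricle and septa, read 1003 and 989.4 against 528.7 and 518.2. These readings are from the brighter of 2 Tbx5 probe sets. The regions lay far apart there, with a log2 difference of 0.87 (limma, adjusted p = 0.0049). Tbx20, a T-box factor that also binds Gata4 and Nkx2-5, gave 0.91 (adjusted p = 0.0146), missed without junction array 1b or ventricular array 1a (up to 0.0726), and had a second probe set at 0.18 that did not pass. Nfatc4, which binds Gata4 after calcium signals, gave 0.76 (adjusted p = 0.00637) on its brightest probe set and 0.11 with no pass on another. The co-repressors of GATA factors did not pass, Zfpm2 at 0.30 and Zfpm1 at −0.03, nor did the Mef2 relative Srf at −0.30 or its co-activator Myocd at −0.67 (adjusted p = 0.0561). These 4 were named after their values were seen.

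Of 9 tested enzymes that control Mef2 activity, 1 was higher, 1 lower and 7 did not pass. That is 22.2%, near the 15.0% of all genes, and the median log2 difference was −0.05, against −0.06 for all genes. Ppp3ca, a catalytic subunit of the phosphatase calcineurin, read 1425 and 1485 on the junction arrays and 725.5 and 662.0 on the ventricular arrays. Between regions the arrays were far apart, with a log2 difference of 1.02 (limma, adjusted p = 0.0023). A second probe set gave 0.95 and passed, and the other gave −0.12 and did not. Prkd1, a kinase that sends class II histone deacetylases out of the nucleus, gave −0.45 (adjusted p = 0.0497) and missed when any 1 of the 4 arrays was dropped (0.196 at most over all alternatives).

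The list for the Hand factors holds bHLH proteins that pair with them, inhibitors of pairing, and 2 proteins of other kinds, the LIM protein Fhl2 and the phosphatase subunit Ppp2r5d, neither of which passed. Its genes were higher in the AV junction where they passed. Among the 14 that could be tested 8 rose and 0 fell, leaving 6 that did not pass (limma, with 8 higher and 1 lower at an unadjusted p under 0.05), which is 57.1%, where 15.0% of all genes passed and 8.47% were higher. Their median log2 difference was 0.66, against −0.06 for all genes. Twist1, a partner and rival of the Hand proteins in mesenchyme, read 846.8 and 682.4 on the junction arrays and 33.9 and 91.9 on the ventricular ones, both of which lay below background. It was at least 7.52-fold higher (764.6 ± 116 against 62.9 ± 41.0, SD, n = 2 arrays, adjusted p = 0.00113). It is also 1 of the 7 cushion markers. Id3, which binds bHLH partners and keeps them off DNA, gave a log2 difference of 1.36 (adjusted p = 0.000638). Hey1, a bHLH repressor at the AV boundary, gave 1.03 (adjusted p = 0.00418). Tcf12, an E-protein that forms dimers with tissue-specific bHLH factors, gave 0.98 (adjusted p = 0.00176) on its brightest probe set and 0.34 with no pass on the other. The 7 cushion markers, Twist1 among them, had a median log2 difference of 2.22 on the same arrays, and their part in the differences of these genes and of the partners above was not tested.

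Genes known from textbooks as targets of these factors were mostly lower in the AV junction where they passed. Of 24 tested, 1 was higher, 9 were lower and 14 did not pass, 41.7% in all, where 15.0% of all genes passed and 6.54% were lower. The median log2 difference was −0.23, against −0.06 for all genes. Mb, the oxygen store of muscle and a Mef2 target, read 138.4 and 74.7 on the junction arrays and 1253 and 1279 on the ventricular arrays. On this probe set, the brighter of 2 for Mb, the ventricular level stood far above the AV one. The log2 difference was −3.10 (limma, adjusted p = 0.000363). Nppa, a peptide hormone gene driven by Nkx2-5, Gata4, Tbx5 and Mef2c, read 3573 and 2772 against 14998 and 15945, a log2 difference of −2.28 (adjusted p = 0.000174). Its neighbour Nppb, a classical Gata4 target, read 532.8 and 555.4 against 2369 and 3335, a log2 difference of −2.27 (adjusted p = 0.000412). The higher target was Wnt2, a ligand gene downstream of Gata6, which read 896.7 and 776.6 against 195.8 and 172.7. Its log2 difference was 1.92 (adjusted p = 0.000638). Of the 6 heart muscle markers, none of which is in this list, 4 were lower on the same junction arrays (Myh7 at −0.97, Actn2 at −0.75, Tnnt2 at −0.44 and Tnni1 at −0.39). The other 2 did not pass, Ttn at 0.03 and Ryr2 at 0.10, the median was −0.42, and their part in the target differences was not tested.

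**Figure D4:**
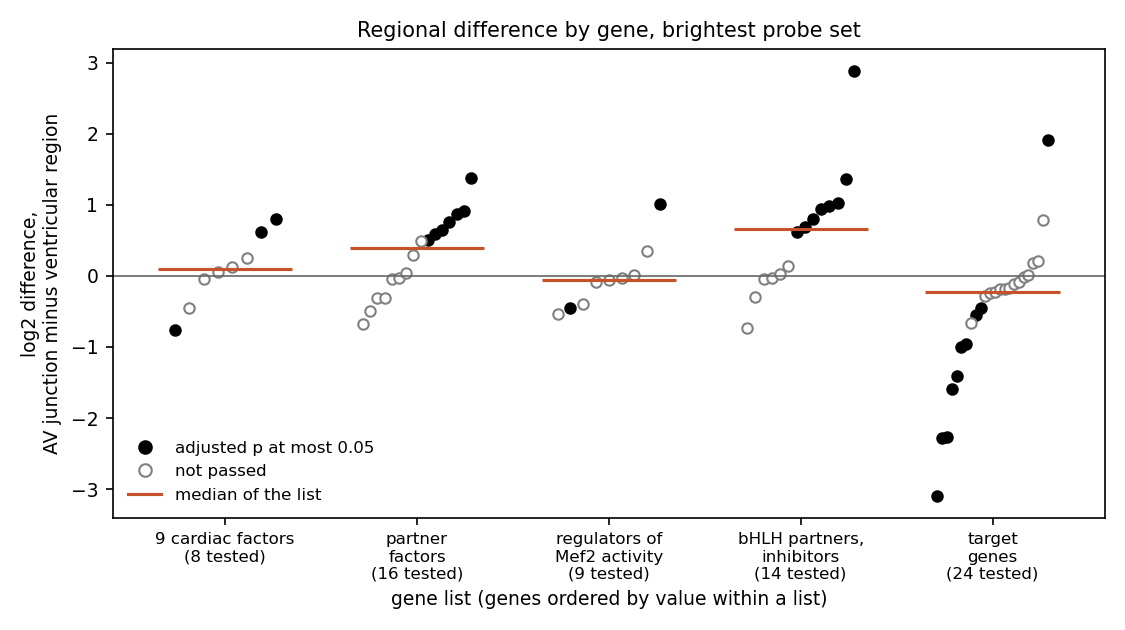
Log2 difference, AV junction minus ventricular region, of each tested gene on its brightest probe set, by list (filled: passed at an adjusted p of at most 0.05, horizontal lines: list medians). The medians are 0.09 for the cardiac factors, 0.40 for partners, −0.05 for regulators of Mef2, 0.66 for partners and inhibitors of Hand and −0.23 for targets, where 1 gene, Wnt2 at 1.92, is the only filled point above 0.

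The bases before the start of 3 targets are shown since each holds the letters that GATA factors bind, Nppa also those for Nkx2-5, and they belong to genes with some of the largest differences. All are from RefSeq for GRCm38.p6, run 5′ to 3′ toward the start, and have GATA matches and, in Nppa, AAGTG in capitals. Nppa is at chr4:148000472-148000721, plus strand, Nppb at chr4:147985650-147985899, plus strand, and Wnt2 at chr6:18030446-18030695, minus strand.
Nppa, upstream bases: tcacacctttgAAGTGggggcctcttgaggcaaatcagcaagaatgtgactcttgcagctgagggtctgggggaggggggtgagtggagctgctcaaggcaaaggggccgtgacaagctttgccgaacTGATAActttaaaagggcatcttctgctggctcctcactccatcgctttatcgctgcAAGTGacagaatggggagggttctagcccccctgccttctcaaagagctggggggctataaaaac
Nppb, upstream bases: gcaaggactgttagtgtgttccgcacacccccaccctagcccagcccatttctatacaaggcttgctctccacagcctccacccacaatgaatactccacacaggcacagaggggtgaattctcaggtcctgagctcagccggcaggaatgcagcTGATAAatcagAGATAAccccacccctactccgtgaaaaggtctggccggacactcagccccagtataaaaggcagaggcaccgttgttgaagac
Wnt2, upstream bases: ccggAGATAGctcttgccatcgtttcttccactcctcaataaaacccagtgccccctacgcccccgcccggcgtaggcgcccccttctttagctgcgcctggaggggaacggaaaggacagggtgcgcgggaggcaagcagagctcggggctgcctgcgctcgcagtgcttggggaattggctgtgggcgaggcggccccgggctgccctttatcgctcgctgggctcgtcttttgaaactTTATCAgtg
Nppa held 1 GATA match, 122 to 117 bases before the start, and 2 AAGTG matches, at 239 to 235 and at 65 to 61, the latter inside an E-box match at 66 to 61. Nppb held 2 GATA matches, at 95 to 90 and 84 to 79, the first overlapping an E-box match at 99 to 94. Wnt2 held 2 GATA matches, at 246 to 241 and, on the opposite strand, at 9 to 4. GATA matches were found in 3 of 12 promoters of lower targets and 6 of 14 promoters of targets that did not pass, beside the 26.5% of all promoters. AAGTG was found in 6 of 12 and 6 of 14, beside 40.7%, and the Mef2 consensus in 0 of 12 and 0 of 14, beside 2.92%. Of the 6 promoters of lower targets with AAGTG, 3 are windows of Mb, and 2 of these overlap and share 1 match. These counts are small and were not tested.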

How the data were processed

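Gene expression was read on 4 arrays, 2 from each region. For every probe set the authors deposited a linear intensity on each array. The submitters' processing notes name MAS5. A version, detection calls and a genome build are not given in the sources used here. The experiment records of the arrays, read for batches only, give all 4 the same chip lot, station and protocol. Each array had a separate module, so an effect of the module cannot be told apart from that of the array.

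Scaling set the 2% trimmed mean of an array to 500, over 22626 non-control probe sets, of which 20380 have 1 gene symbol, 691 several and 1555 none. Probe sets with a mean of at least 100 were tested (13403), which left out 9223. Log2 of intensity plus 50 went into limma 3.58.1 (R 4.3.3), in a model of region alone by lmFit and a trended eBayes, at 7.43 degrees of freedom in total. The p-values were adjusted over all tested probe sets (Benjamini-Hochberg). A gene in a list took its brightest probe set. The fit was tested on simulated data. The 9 factors, the lists and the tests were chosen with earlier results of these data known. Named genes were all members and relatives, in each list the 4 largest differences that passed, and for each member that passed the 2 genes closest to it. Any other gene was named after its values were seen. Gene names were checked in RefSeq's table for GRCm38.p6, with 0 symbols changed, and promoters come from its sequences. Python 3.11.15 with matplotlib 3.10.9 drew the figures. Protein sequences were not used here. Alternatives were quantile or median scaling, values as deposited, pseudocounts of 1 and 200, no floor or 300, no variance trend, a block for the replicate number, leaving out 1 array at a time, averaging the probe sets of a gene, and no _x_at or _s_at probe sets.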

Additional observations from a re-analysis of the deposited data

How the results depend on the processing

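Each of the 17 tested probe sets of the factors was refitted under up to 14 alternatives. Of these values 200 kept their direction and side of the threshold, 13 fell short of it, 3 newly passed and 6 changed sign, with none of those 6 past the threshold on either side. The sign changes were in Gata4 1418863_at (0.012 with quantile normalisation, 0.12 with median scaling, and −0.095 to 0.012 with an array left out, positive without ventricular array 1a), in Mef2d 1434487_at (−0.022 with quantile normalisation, and −0.045 to 0.15 with an array left out, negative without junction array 1b) and in Mef2c 1451506_at (−0.092 to 0.19 with an array left out, negative without junction array 1a). Higher factor probe sets numbered 4 with median scaling and 1 without any 1 of the 4 arrays. Lower ones numbered 0 with quantile normalisation, median scaling, a pseudocount of 200, no floor or no variance trend, and 0 to 1 with an array left out (limma, with 1 or 2 lower at an unadjusted p under 0.05 in each of these). Over the whole array, median scaling gave 1714 higher and 459 lower probe sets, no floor 580 and 431, and no trend 326 and 343, against 970 and 882. Leaving out 1 array gave 404 to 507 higher and 261 to 501 lower. Partners that passed numbered 4 with no trend, 4 after averaging the probe sets of each gene and 3 to 5 with an array left out. Regulators of Mef2 numbered 1 with median scaling, a pseudocount of 1, no floor, no trend and with any 1 array left out, and genes of the Hand list numbered 5 with no trend. The replicate number as a block gave 1344 higher and 1375 lower probe sets and changed no call of a factor. The deviations of junction array 1a and ventricular array 1a from their region means correlated at r = 0.06 over probe sets, so the numbers were not taken as pairs. The causes of these shifts were not tested. With an array left out, the lone array of a region is assumed to vary like the others. Probe sets near background, among them those of Hand2, limit what can be said of dim genes.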
